A study of Mus musculus with 6 samples.

Results

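The 10 genes described here are hormone and secretory genes of enteroendocrine cells, the scattered hormone-releasing cells of the gut epithelium. They are Gcg, Pyy, Insl5, Ppy, Nts, Sst, Cck, Tph1, Chga and Chgb. They were selected by name, with the intensities of these same arrays and the ratios between them already known, so their values are a description and carry no test. Of 18194 genes that the array reads under 1 symbol, these are 10, each read by 1 probe set.

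RNA came from colon and liver of male C57BL6/J mice aged 7 weeks, housed singly, in 3 groups. Control mice (CON) had basal diet and plain water. Colitis mice (DSS) had basal diet and, after 7 days of plain water, drinking water with 1.5% (w/v) dextran sodium sulphate, which injures the lining of the colon. Parsley mice (DSSPAR) ate basal diet with 2% parsley and were given the same DSS solution after the same 7 days. The treatment protocols give 10 days of it for DSS and 9 for DSSPAR, so diet and exposure cannot be told apart between these groups. Each array read 1 pool of RNA from 7 mice, and each group had 1 Affymetrix mouse expression array per tissue, 6 in all. No difference below has a replicate check or carries a p-value, and so few arrays limit the precision. In such whole-tissue RNA, fewer cells of a type and less RNA per cell cannot be told apart.

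Enteroendocrine cells make up a small share of the epithelium and differ in the peptides they store. L cells, common in the distal gut, make proglucagon and peptide YY, and those of the colon also make insulin-like peptide 5. D cells make somatostatin, enterochromaffin cells make serotonin through tryptophan hydroxylase, and neurotensin comes from N cells, which are best known from the small intestine. Chromogranins pack the dense-core granules of nearly all of these cells, and of nerve and pancreatic islet cells too. Somatostatin, cholecystokinin and neurotensin are also neuropeptides, and Gcg, Ppy and Sst are also islet hormone genes.

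The sequences just upstream of the start sites of the genes that differed most are shown for context, with those of Sst and Chgb, which stayed within 2-fold. They are from RefSeq (build GRCm38.p6), which held all 10 genes. Each run is the 100 bases before the start, 5′ to 3′ on the gene's strand, and all 5 of the first genes lie on the minus strand. Capitals mark the letters TATAAA, the core of a TATA box, or TGACGTCA, the cyclic AMP response element, on either strand.
Gcg, chr2:62483654-62483753: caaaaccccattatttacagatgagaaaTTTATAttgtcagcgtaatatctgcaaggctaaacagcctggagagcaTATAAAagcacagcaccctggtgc
Pyy, chr11:102107833-102107932: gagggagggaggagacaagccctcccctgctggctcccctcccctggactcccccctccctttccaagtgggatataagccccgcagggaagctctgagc
Insl5, chr4:103026729-103026828: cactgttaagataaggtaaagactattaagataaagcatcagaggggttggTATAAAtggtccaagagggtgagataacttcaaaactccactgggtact
Ppy, chr11:102101320-102101419: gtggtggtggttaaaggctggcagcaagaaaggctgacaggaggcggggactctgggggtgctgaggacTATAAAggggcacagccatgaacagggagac
Nts, chr10:102490419-102490518: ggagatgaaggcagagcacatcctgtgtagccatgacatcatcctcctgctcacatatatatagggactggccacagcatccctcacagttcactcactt
Sst, chr16:23890845-23890944, minus strand: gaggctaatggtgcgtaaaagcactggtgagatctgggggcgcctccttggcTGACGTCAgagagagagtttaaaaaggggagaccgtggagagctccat
Chgb, chr2:132781542-132781641, plus strand: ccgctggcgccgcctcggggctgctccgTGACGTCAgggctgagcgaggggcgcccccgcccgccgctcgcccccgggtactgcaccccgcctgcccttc

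RefSeq lists 2 starts for Insl5 and 2 for Pyy; the downstream start of Insl5 and the upstream start of Pyy are shown. Over all listed starts, TATAAA stood in this window for 3 of the 10 genes, Gcg, Insl5 and Ppy, and in 5.56% of the 32851 windows of the table. TGACGTCA stood there for Sst and Chgb, and in 1.15% of all windows. A gene was counted if any of its listed starts matched, whereas the percentages are per window, so the 2 are not in the same unit. The motifs do not overlap in these runs, and a match describes letters only. Ppy and Pyy are next to each other on chromosome 11 with no other protein-coding gene between them. Their outer neighbours did not share their pattern. Mpp2 was under the floor in all 3 colon arrays (6.25, 5.37 and 12.4 in CON, DSS and DSSPAR), and Nags read 47.4, 21.1 and 29.0 in the same order.

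The values are intensities on a linear scale, and the floor for each tissue was the median over its 3 arrays, under which a level is not told from background. The floor was 25.1 in colon and 96.6 in liver, and the tissues, whose arrays were scaled apart, were set against their own floors. A ratio is log2 of 2 intensities with values under the floor raised to it, so a fold against such an array is written "at least". The spread of a single probe set's ratio was estimated from the differences between 2 probe sets of 1 gene. This robust SD, called the probe set SD below, was 0.26 to 0.30 log2 units in colon and 0.34 to 0.40 in liver. The difference between 2 probe sets varies more than this, and differences between pools are left out. All 21 goblet and absorptive epithelium markers were above the floor in every colon array, and all 14 hepatocyte markers in every liver array, as their tissue labels state. In the other tissue fewer were. Of the 21, 10, 8 and 9 were above it in liver CON, DSS and DSSPAR, and of the 14, 6, 7 and 6 in colon. The epithelium markers were not all level between the colon arrays. In DSS 1 of the 21 was 2-fold or more above CON and 3 as far below, and in DSSPAR 2 and 2. Fabp2 was 7.05-fold and 3.59-fold below CON in DSS and DSSPAR, and Spink4 2.17-fold and 3.12-fold above. The shares over all genes are given below.

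In the colon, 3 hormone genes exceeded CON by 2-fold or more in DSS, 1 was below it by as much, and the general markers of enteroendocrine cells differed little. The 3 were Ppy, Insl5 and Pyy, and the lower one was Nts. Among all 11952 genes measured in that comparison, 5.18% lay 2-fold or more above CON and 1.97% as far below. The median log2 ratio of the 10 genes was 0.27, against 0.042 over all genes. In DSSPAR against CON, 4 of 10 were past 2-fold on the high side, Gcg now among them, and Nts was again the only one lower. The background there was 3.51% higher and 2.10% lower of 11808 genes, and the median of the 10 genes was -0.006 against 0.027. With 1 pool per group these shares are set side by side only, since the genes were picked on these arrays. The DSS and DSSPAR comparisons share the CON array, so they are not separate evidence.

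**Figure D1:**
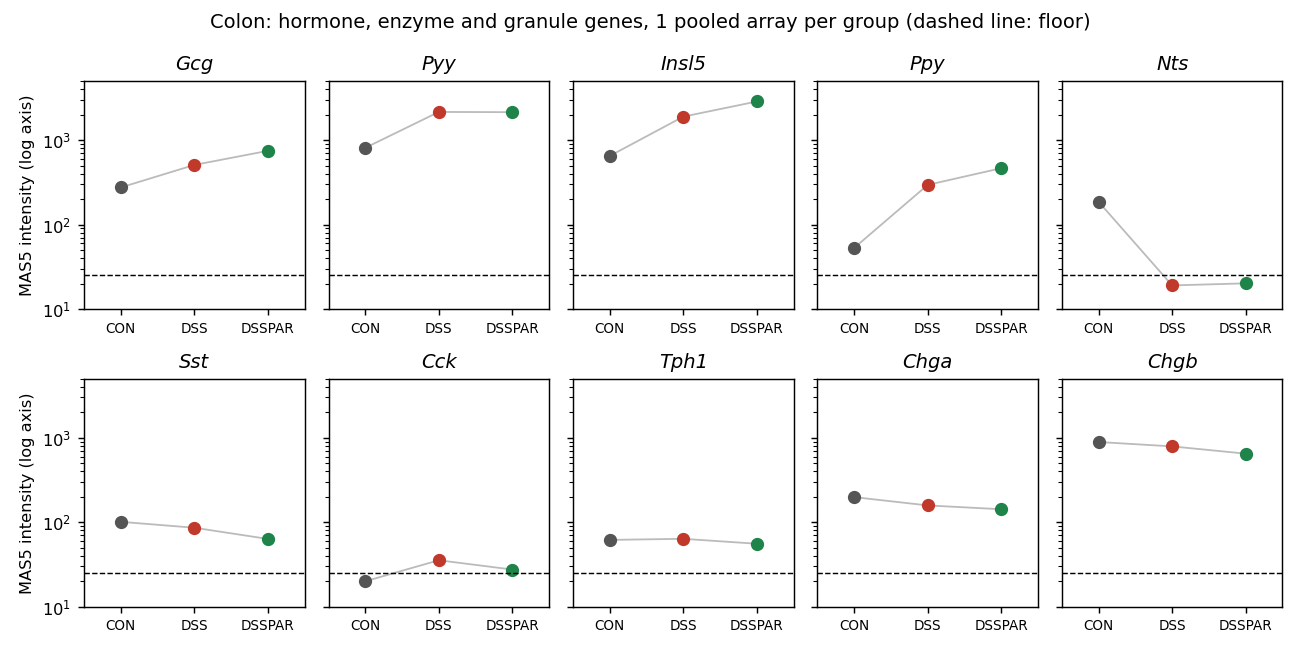
MAS5 intensity (log axis) of each of the 10 genes in the 3 colon arrays, CON, DSS and DSSPAR, with 1 point per pooled array and the floor of 25.1 as a dashed line; the lines only join the points of a gene. Gcg, Pyy, Insl5 and Ppy lie above their CON point in both colitis arrays, Nts drops under the floor in both, and Chga and Chgb stay near their CON level.

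Of the L cell hormones, Insl5 had the largest ratios in both comparisons with CON. Insl5 encodes an insulin-like peptide of colonic L cells that signals through the receptor RXFP4. Its intensity was 649 in CON, 1894 in DSS and 2863 in DSSPAR (probe set 1449493_at). It was thus lowest in CON and highest in DSSPAR, 2.92-fold higher in DSS than in CON (log2 ratio 1.55) and 4.41-fold higher in DSSPAR than in CON (log2 ratio 2.14). By its ratio it was number 217 from the top of 11952 genes in the first comparison and number 37 of 11808 in the second.

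Pyy, whose product peptide YY slows gut transit and curbs appetite, read 810.1 in CON, 2154 in DSS and 2141 in DSSPAR (1424865_at). Both colitis arrays stood together above CON, by 2.66-fold in DSS and 2.64-fold in DSSPAR. Gcg encodes proglucagon, which L cells cut into the glucagon-like peptides GLP-1 and GLP-2. It read 275 in CON, 508 in DSS and 746.5 in DSSPAR (1425952_a_at). Its ratio to CON fell short of 2-fold in DSS, at 1.85-fold (log2 ratio 0.89), and was past it in DSSPAR, at 2.71-fold (1.44). The Gcg and Cck probe sets are of a type (_a_at) that reads several transcripts of a gene.

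Ppy, which encodes pancreatic polypeptide, a relative of peptide YY made mostly in the islets and by some cells of the distal gut, had the highest ratio to CON of the 10 genes in both comparisons. Its colon intensity was 53.0 in CON, 295 in DSS and 465 in DSSPAR (1420440_at). CON was only 2.11 times the floor, while the colitis arrays were 11.8 and 18.5 times it. The ratio to CON was 5.57-fold in DSS and 8.78-fold in DSSPAR (log2 2.48 and 3.13), number 67 of 11952 and number 12 of 11808 genes from the top. Both ratios lean on a CON value near the floor. With the floor at the 75th percentile they were 1.50 and 2.16 on the log2 scale, and Ppy in DSS then stood below Insl5 at 1.55.

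Because Ppy, Gcg and Sst are also islet genes, pancreas markers were read beside them. Of 17 exocrine pancreas genes measured in DSS against CON, 13 were 2-fold or more higher and 1 was lower, with a median log2 ratio of 2.63. Of the 19 on the array, 4 were above the floor in CON, 17 in DSS and 5 in DSSPAR. Their summed intensity was 8254, 7564 and 6273 in that order, most of it from Sycn and Cela1, which were already high in CON. Both were lower in DSS, Sycn at 2412 against 5391 and Cela1 at 1628 against 2554. The 15 genes at or under the floor in CON summed to 130.6 in CON, 3146 in DSS and 128.5 in DSSPAR. The trypsinogen gene Prss2, for example, read 12.0 in CON, 581 in DSS and 14.3 in DSSPAR. In DSSPAR against DSS, 12 of 17 measured exocrine genes were 2-fold or more lower and none higher, with a median log2 ratio of -2.60. In DSSPAR against CON 5 were measured and none passed 2-fold, in either direction. Ppy and Gcg were higher in DSSPAR than in DSS (log2 ratios 0.66 and 0.55), and Sst was lower (-0.44). Of 10 endocrine pancreas markers, 7 were under the floor in all 3 colon arrays, among them Pdx1, Nkx6-1 and Slc30a8. The insulin gene Ins2 read 18.4, 30.4 and 18.9, and Iapp, the islet amyloid peptide gene, read 29.2, 14.3 and 7.95. Sytl4, which is also on the list of granule genes, was above the floor in all 3 arrays at 81.2, 41.5 and 54.1. The summed intensity of the 10 was 186, 128 and 109 in CON, DSS and DSSPAR. Most of that sum came from Sytl4 and from values under the floor. How much pancreatic RNA adds to the Ppy, Gcg and Sst values of the DSS array was not tested.

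**Figure D2:**
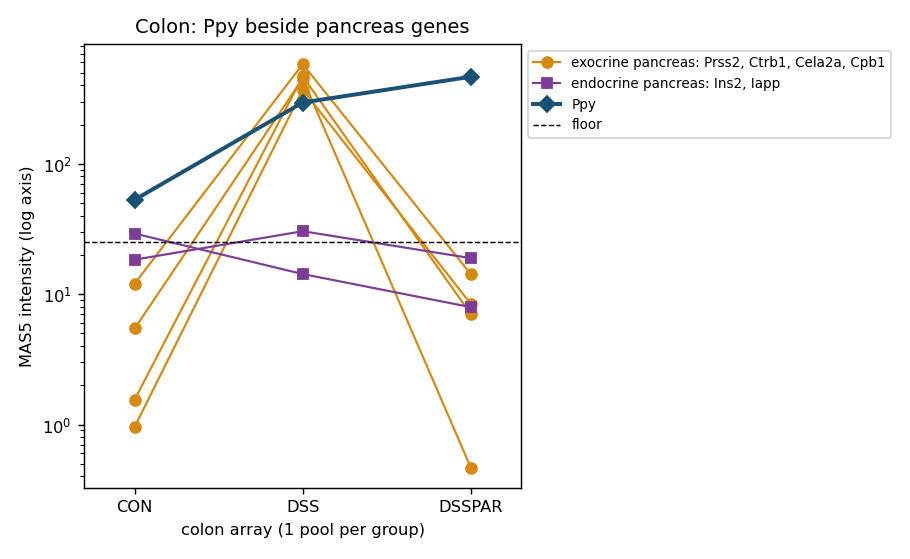
MAS5 intensity (log axis) in the 3 colon arrays of Ppy (diamonds), of 4 exocrine pancreas genes (circles: Prss2, Ctrb1, Cela2a, Cpb1) and of 2 islet genes (squares: Ins2, Iapp), with the floor of 25.1 dashed. The exocrine genes exceed the floor in DSS alone, the islet genes stay near or under it, and Ppy climbs from 53.0 to 295 and 465.

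Nts moved the other way from the L cell hormones. Nts encodes neurotensin, a peptide that acts on gut motility and secretion. Its colon intensity was 186 in CON, 19.1 in DSS and 20.2 in DSSPAR (1422860_at). CON was 7.41 times the floor and both colitis arrays were under it, so Nts was at least 7.41-fold lower in each (log2 ratio -2.89). It was the number 15 lowest of 11952 genes in DSS against CON and the number 13 lowest of 11808 in DSSPAR against CON. With the floor at the 75th percentile its log2 ratio was -0.84 in both comparisons, short of 2-fold.

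Of the remaining hormone and amine genes, Sst and Tph1 lay within 2-fold of CON, and Cck, under the floor in CON, has only a lower bound. Sst encodes somatostatin, the D cell hormone that restrains other endocrine cells. It read 101 in CON, 86.2 in DSS and 63.6 in DSSPAR (1417954_at), lower in each colitis array, with log2 ratios of -0.23 and -0.67 to CON. Cck encodes cholecystokinin, released by I cells of the upper gut. It lay close to the floor in every colon array, at 20.1, 35.6 and 27.6 (1419473_a_at), at least 1.42-fold higher in DSS than in CON. Tph1, the rate-limiting enzyme of serotonin synthesis in enterochromaffin cells, read 61.9, 63.8 and 55.8 (1419524_at). Its log2 ratios to CON were 0.04 in DSS and -0.15 in DSSPAR, both smaller in size than the probe set SD. Each turned sign under at least 1 other scaling of the arrays.

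Chga and Chgb encode chromogranins A and B, the granule proteins that mark enteroendocrine cells as a class. Chga read 199 in CON, 158 in DSS and 143 in DSSPAR (1418149_at). Chgb read 892 in CON, 791 in DSS and 649 in DSSPAR (1415885_at). Both had the order CON, DSS, DSSPAR from high to low, the reverse of Gcg, Insl5 and Ppy. Their log2 ratios to CON were -0.33 and -0.17 in DSS and -0.48 and -0.46 in DSSPAR, none near 2-fold. The array medians fell in the same order, at 27.3, 25.8 and 22.5. With arrays centred on their medians, Chga was slightly higher in DSSPAR than in DSS (log2 ratio 0.05), so its order depends on the scaling. Because a single scaling factor per array cancels when 2 genes are compared within the same arrays, each hormone's ratio was also set against that of Chgb. Relative to Chgb, the difference of log2 ratios between DSS and CON was 2.65 for Ppy, 1.72 for Insl5, 1.58 for Pyy, 1.06 for Gcg and -0.061 for Sst. Between DSSPAR and CON it was 3.59 for Ppy, 2.60 for Insl5, 1.90 for Gcg, 1.86 for Pyy and -0.21 for Sst. Ppy, Insl5, Pyy and Gcg thus differed from Chgb within the arrays, whatever the scaling factor. Sst differed from Chgb by less than the probe set SD. Nts, under the floor in both colitis arrays, is given no such difference.

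**Figure D3:**
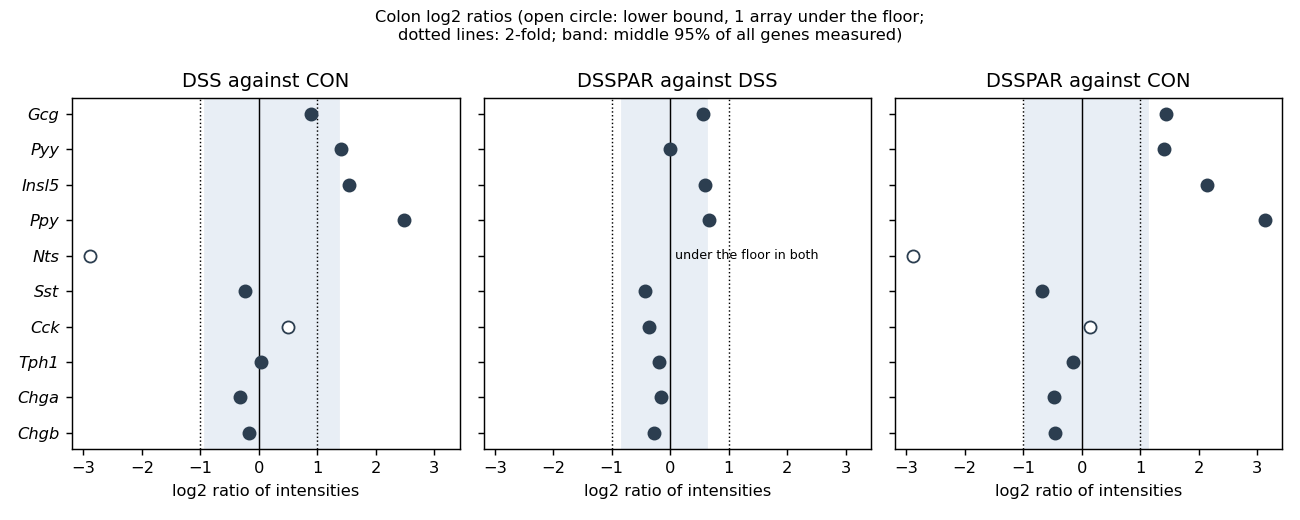
Log2 ratios of the 10 genes in the 3 colon comparisons, with 0 as a solid line, 2-fold as dotted lines and the middle 95% of all genes measured as a band; open circles are lower bounds with 1 array under the floor. Ppy, Insl5 and Pyy lie above the band and Nts below it in both comparisons with CON, Gcg lies above it in DSSPAR against CON, and in DSSPAR against DSS every gene measured lies within 2-fold, with Ppy at 0.66 just above the band, which ends at 0.63.

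Between the parsley group and the colitis group, no gene of the 10 reached 2-fold in colon. Nts was under the floor in both arrays, which leaves 9. Of all 11730 genes measured, 0.392% were higher in DSSPAR by 2-fold or more and 1.24% were lower by as much. Ppy was 1.58-fold, Insl5 1.51-fold and Gcg 1.47-fold higher in DSSPAR than in DSS (log2 ratios 0.66, 0.60 and 0.55). These exceed the probe set SD of 0.26, and with 1 pool a side they have no other measure of error. Pyy was level at -0.009 and changed sign with arrays centred on their medians. Sst, Cck, Chgb, Tph1 and Chga were lower, at -0.44, -0.37, -0.29, -0.19 and -0.15. Of these, Tph1 and Chga turned positive with that centring (0.003 and 0.05). Sst, Cck and Chgb also exceeded the probe set SD in size, but were at -0.24, -0.17 and -0.09 with that centring. The median of the 9 was -0.15, against -0.01 over all genes.

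Other genes of the endocrine cell were read from lists chosen for their role, with 2-fold as the mark. The lineage factors, which turn progenitors into endocrine cells, held 12 measured genes, and none passed 2-fold against CON in DSS or DSSPAR. Their median log2 ratios were -0.13 and -0.19. Neurog3, the factor that commits a cell to the endocrine fate, was close to the floor in CON at 28.1, and read 54.3 in DSS and 46.7 in DSSPAR. Its second probe set was under the floor in all 3. Neurod1, which acts after it, read 92.6, 89.9 and 72.8 by its brightest probe set and 70.6, 50.4 and 97.1 by the other, which put DSSPAR at opposite ends. Atoh1, the factor for all secretory cells, read 346, 190 and 246, lowest in DSS. Rfx3, a regulator of endocrine differentiation, was 1.94-fold lower in DSS than in CON.

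Of 23 measured genes of prohormone processing and dense-core granules, 1 lay 2-fold or more below CON in DSS and none above (median -0.17). The one was Syt7, a calcium sensor of vesicle release, at 2.24-fold lower. In DSSPAR against CON 1 of 23 was lower and none higher (median -0.18), and here it was Pam, the enzyme that amidates peptide YY and many other hormones. Pam read 385 in CON, 234 in DSS and 97.1 in DSSPAR, 3.97-fold lower in DSSPAR than in CON. In DSSPAR against DSS, 2 of 23 were 2-fold or more lower and none higher (median -0.10), Pam at 2.41-fold and Snap25 at 2.10-fold. Cpe, the carboxypeptidase that trims prohormones, was at 1737, 1354 and 1046. Pcsk1, the convertase that makes GLP-1, was near the floor at 42.3, 19.0 and 39.8. Most of the processing genes lay below CON with Chga and Chgb, 16 of 23 in DSS and 15 of 23 in DSSPAR, while 45.9% and 47.4% of all genes did.

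Genes of amine-producing cells other than Tph1 gave a mixed picture. Of 7 measured in DSS against CON, 2 passed 2-fold above CON and none below (median 0.48), and 2 of 6 in DSSPAR against CON (median 0.55). Tac1, which encodes substance P and is made by enterochromaffin cells and nerves, read 355 in CON, 1679 in DSS and 1349 in DSSPAR, 4.72-fold and 3.80-fold above CON. Its second probe set was under the floor in all 3 arrays. Gch1, which makes the cofactor of tryptophan hydroxylase and is expressed in many cell types, was 3.87-fold and 3.84-fold higher by its brightest probe set (163, 631 and 626). The other read 117, 190 and 212, short of 2-fold. Ddc, which turns 5-hydroxytryptophan into serotonin, read 720, 437 and 703, lowest in DSS. Reg4, a secreted lectin of endocrine and other secretory cells, read 1332, 1214 and 2659, and was 2.19-fold higher in DSSPAR than in DSS.

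In a list of other gut peptide genes, which does not hold Tac1, of 7 measured in DSS against CON, none was 2-fold higher and 1 was lower, Guca2a, which encodes guanylin, a peptide that drives fluid secretion. Guca2a read 3754 in CON, 1452 in DSS and 1465 in DSSPAR, and its ratio of 2.59-fold and 2.56-fold below CON was alike in both. Penk, the proenkephalin gene, also expressed by nerves, read 211, 349 and 169.5. It was 1.65-fold higher in DSS than in CON and 2.06-fold lower in DSSPAR than in DSS, the only gene of this list past 2-fold there. Sct, encoding secretin, read 95.8, 89.1 and 105, all near one another. Gip and Gast, hormones of the upper gut, were under the floor throughout. Of the receptors and clearance genes, 12 were measured in DSS against CON and none passed 2-fold, with 11 below CON (median -0.27). Of all genes, 45.9% lay below CON there. The serotonin transporter Slc6a4 read 105 in CON, 62.1 in DSS and 89.5 in DSSPAR. Of 8 nutrient-sensing receptors on the array, 4 were measured in DSS against CON and none passed 2-fold. Ffar4, a fatty acid receptor of L cells, was at 108, 132 and 124.

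**Figure D4:**
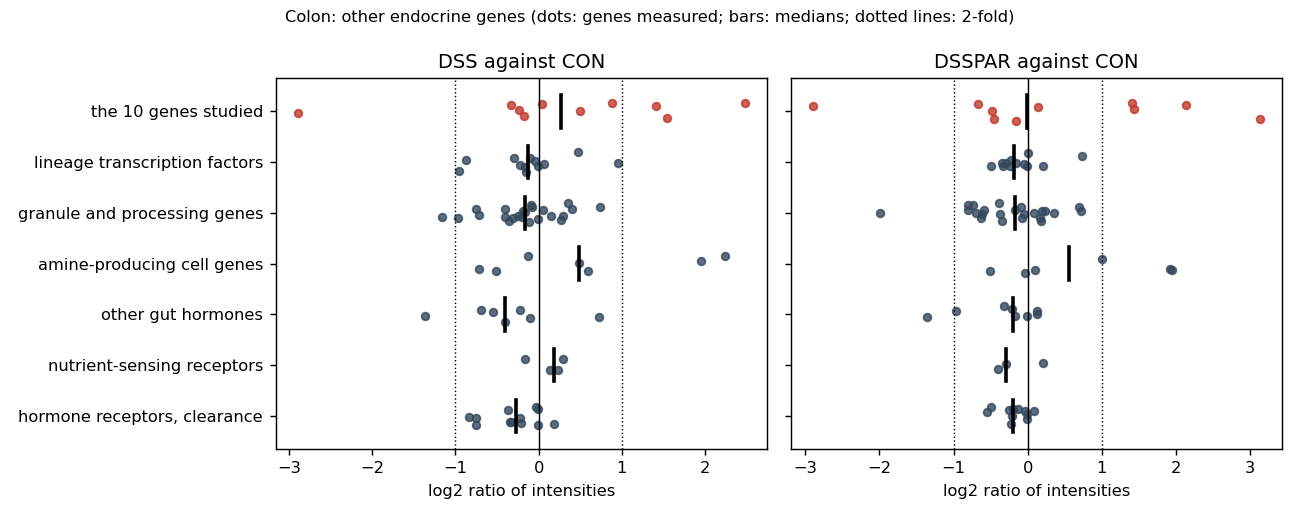
Log2 ratios to CON in colon for the 10 genes (top row) and for 6 lists of other endocrine genes, with DSS on the left and DSSPAR on the right; dots are genes measured, bars their medians and dotted lines 2-fold. The 10 genes spread from -2.89 to 2.48 in DSS and to 3.13 in DSSPAR, whereas nearly all lineage and granule genes lie within 2-fold.

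Nerve markers were read beside the genes that nerves share. Of 15 measured enteric neuron and glia markers, none passed 2-fold against CON in DSS (8 above and 7 below, median 0.05) or in DSSPAR (1 above and 14 below, median -0.48). Of all genes, 45.9% lay below CON in DSS and 47.4% in DSSPAR. In DSSPAR against DSS all 13 measured were lower, with a median of -0.59, while 51.7% of all genes were. Centring the arrays on their medians moved the median of all genes in that comparison from -0.013 to 0.18. The nerve markers were not read with that centring. In DSSPAR against DSS 2 markers passed 2-fold. Gap43, a protein of growing axons, was at least 2.23-fold lower. Snap25, part of the vesicle fusion machinery and also on the list of granule genes, was 2.10-fold lower. The summed intensity of the 21 markers on the array was 1348 in CON, 1660 in DSS and 1121 in DSSPAR. This sum leans on Vip, the brightest of them, which read 342, 654 and 435 and was 1.91-fold higher in DSS than in CON. Chat, Sox10 and Gfap were under the floor in all 3 arrays. Of the genes that nerves share, Sst, Chga, Chgb and Penk were lower in DSSPAR than in DSS or CON. With arrays centred on their medians, Chga was instead slightly higher in DSSPAR than in DSS (log2 ratio 0.05). Tac1 and Cck were lower in DSSPAR than in DSS but higher than in CON, where Cck was under the floor. Nts was under the floor in both colitis arrays. The part of nerve RNA in these values was not tested.

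In liver, most of the 10 genes were not told from background. Above the floor of 96.6 were 3 of 10 in CON, 3 in DSS and 1 in DSSPAR, against 9 of 10 in each colon array. In the colon arrays Pyy stood above 95.8% to 98.5% of probe sets and in the liver arrays above 53.0% to 69.8%. Chgb stood at the 94.1 to 96.2 percentile in colon and at the 10.4 to 23.1 percentile in liver. Gcg, Nts, Ppy, Cck, Chga, Chgb and Tph1 were under the floor in all 3 liver arrays, and no ratio is given for them.

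**Figure D5:**
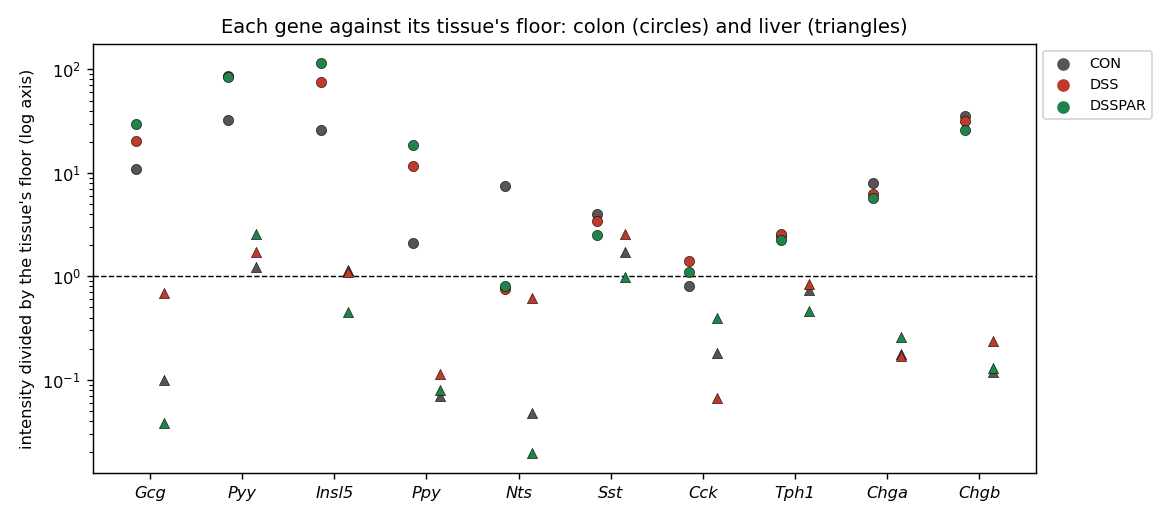
Intensity of each of the 10 genes divided by the floor of its tissue (log axis), for the 3 colon arrays (circles) and the 3 liver arrays (triangles), coloured by group; the dashed line is the floor itself. All colon points but those of Nts in both colitis arrays and Cck in CON lie above the line, and among liver points only some of Pyy, Insl5 and Sst do.

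The 3 measured liver genes read at most 2.59 times the floor. Pyy read 119 in CON, 166 in DSS and 250.4 in DSSPAR. It was 2.10-fold higher in DSSPAR than in CON (log2 ratio 1.07) and the only one of 3 past 2-fold there, beside 3.26% of 12721 genes higher and 3.45% lower. Sst read 164, 248 and 94.6, and its DSSPAR value lay at least 2.56-fold under that of DSS, beside 4.23% of 12398 genes lower and 2.80% higher. In DSS against CON none of the 3 passed 2-fold, with 4.73% of 13034 genes higher and 4.20% lower. Insl5 read 111, 105 and 43.5, close to or under the floor, with no sign of the colon's order. At levels this near the floor, the liver ratios of Pyy and Sst rest on little signal. Of the receptors in liver, Gcgr, the glucagon receptor of hepatocytes, read 3194 in CON, 2538 in DSS and 2995 in DSSPAR. Dpp4, the protease that inactivates GLP-1 and trims peptide YY, read 2067, 1246 and 2702 by its brightest probe set, 2.17-fold higher in DSSPAR than in DSS. Its 3 other probe sets did not share that size: from DSS to DSSPAR they read 1035 and 1287, 150 and 174, and 613 and 519.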

How the data were processed

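Each of the 6 arrays held RNA of 1 pool of 7 mice. The deposited values are linear intensities from MAS5, per the submitters' processing notes. The sources used here do not give its version or scaling target, and detection calls were not used here. The trimmed mean intensity, with the extremes left out, was 500.0 in each liver array. In colon it was 106.2 in CON, 111.0 in DSS and 110.3 in DSSPAR, so the colon arrays did not share 1 trimmed mean. Gene names came from the platform's annotation table: 34958 of 45101 carried 1 symbol, 932 several and 9211 were not listed. All 10 genes matched the gene table by Entrez identifier, with 1 probe set each. Other genes were represented by their brightest probe set.

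The scaling was kept. Values under the floor, the median over the 3 arrays of each tissue, were raised to it, and a gene was measured where at least 1 of 2 arrays exceeded it. With 1 array per group no test was possible. The genes, the 11 lists and the rule for naming genes (all 10, and up to 4 of each list with the largest colon ratios) were chosen with earlier results of these data known. Further genes are named as cell type markers or neighbours, or to give the level of a known step; these were chosen after their values were seen. The ratio step was checked on simulated data. Known shifts were put only into genes far above the floor in CON, so ratios near the floor were not checked. Python 3.11.15, NumPy 2.4.6, pandas 2.3.3 and matplotlib 3.10.9 were used.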

Additional observations from a re-analysis of the deposited data

How the results depend on the processing

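The alternatives were a higher floor (the 75th percentile) or none, 3 other scalings, the mean over probe sets, no probe sets of shared type, and a 3-fold mark. Each gene has 1 probe set, so the probe set choices cannot move its ratio, and a floor moves only genes near it. Under the 3 other scalings Pyy, Insl5 and Ppy stayed past 2-fold above CON in colon in both comparisons, as did Gcg in DSSPAR against CON; its probe set is of shared type and has no value without that type. The higher floor moved Ppy from 2.48 to 1.50 in DSS and from 3.13 to 2.16 in DSSPAR. With the higher floor, the colon genes 2-fold below CON went from 1 to 0 in DSS and in DSSPAR. In liver, 0 genes were then above the floor in any array, so 0 passed in DSSPAR against DSS or CON. At 3-fold, 1 colon gene was higher in DSS (Ppy), 2 in DSSPAR (Insl5 and Ppy) and 0 in liver in either direction. Without a floor, liver had 2 higher and 1 lower in DSS against CON, 1 and 4 in DSSPAR against DSS, and 2 and 3 in DSSPAR against CON, nearly all from values under background. With centring on the above-floor probe sets, 0 liver genes were higher in DSSPAR than in CON. With arrays centred on their medians, 2 were above the floor in liver DSSPAR. That centring moved the median log2 ratio of all colon genes from 0.027 to 0.30 in DSSPAR against CON and from -0.013 to 0.18 against DSS.

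Over all genes, the 2-fold higher and lower counts in colon were 619 and 236 in DSS against CON (274 and 102 with the higher floor, 1850 and 1719 with none). In DSSPAR against DSS they were 46 and 146 (108 and 79 with median centring, 66 and 92 after quantile scaling), and in DSSPAR against CON 415 and 248 (890 and 121, and 327 and 335 with arrays centred above the floor). In liver the splits were 616 and 548, 347 and 525, and 415 and 439 (854 and 349, 674 and 332, and 1007 and 188 with median centring). No paired analysis was possible because each group has 1 array.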
